A study of Rattus norvegicus with 8 samples.

Results

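Transcripts of the core of the thin filament, the sarcomeric actins, tropomyosins and tropomodulins, were compared between the orbital and the global layer of adult rat extraocular muscle. The members were Acta1, Actc1, Tpm1, Tpm2, Tpm3, Tmod1 and Tmod4, taken by every probe set of the array that the platform annotation assigns to 1 of these symbols alone. This gave 22 probe sets of 6 genes, out of 12783 probe sets of 10411 genes with a single symbol. Actc1 had no such probe set, because each of its 3 probe sets is annotated to Acta2 as well. Extraocular muscle moves the eye, and its orbital layer lies towards the bony orbit while its global layer lies towards the eyeball. Each layer was cut out of the muscle with a laser, giving 4 orbital and 4 global samples of adult rat muscle with no treatment named in the labels, each run on 1 array and called a capture here. The titles of orbital captures 3 and 4 carry the same capture number, so these may be 1 capture run on 2 arrays, and the orbital layer may then hold 3 captures. The 3 probe sets that passed also did so with these 2 arrays averaged. The labels give neither strain nor the number of animals and do not tie captures to animals, so captures may share an animal. If captures of the same layer do, the p-values over captures given here are too small, and the spread they rest on may be technical. If captures of different layers do, tests that ignore such a pairing can give p-values that are too large.

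Thin filaments are polymers of actin along which tropomyosin lies end to end. Tropomyosin carries the troponin complex and moves over the actin surface when calcium binds troponin, which uncovers the myosin sites. Alpha-actinin and the capping protein hold the barbed end of the filament in the Z disc, and tropomodulin caps the pointed end near the middle of the sarcomere, where it limits filament length together with nebulin and leiomodin. Acta1 is the main actin of adult skeletal muscle, and Actc1 is the actin of heart and of developing skeletal muscle. Tpm1 encodes alpha tropomyosin, which prevails in fast fibres, Tpm2 beta tropomyosin and Tpm3 the tropomyosin of slow fibres, and each of these genes also gives non-muscle or smooth muscle products. Tmod1 is a tropomodulin of red cells and heart, though not of these alone, and Tmod4 is a tropomodulin of skeletal muscle. In chicken, Tmod4 is known from fast and Tmod1 from slow fibres.

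Values are array intensities on a linear scale, and differences are log2 of orbital over global on log2(intensity + 1) with the standard error (SE). An adjusted p comes from limma's moderated test, adjusted by Benjamini-Hochberg over 9520 tested probe sets, and 0.05 was the threshold. Probe sets were tested if their mean log2 value reached the 40th percentile, an intensity of 39.4, which 15 of the 22 member probe sets did and 7 did not. The median intensity of an array was between 58.8 and 66.3, and precision is limited by having 4 arrays per layer. Ckm, the muscle creatine kinase, was between 2115 and 4440.1 in the orbital captures, against 3579.9 to 7017 in the global captures, so a defining transcript of skeletal muscle was present in all 8. Of 9 tested defining genes of skeletal muscle 3 fell (Cacna1s, Ryr1 and Ttn) and 2 rose (Mb and Myf6), calls that were lost under 2 to 5 of 22 alternatives each. Gapdh control probe sets at the 3′ end were 5.81 to 12.9 times as bright as those at the 5′ end in the orbital captures, against 5.35 to 6.47 times in the global captures. This ratio grows as RNA shortens, and its difference between layers did not pass in a two-sided exact permutation test (p = 0.114, or 0.229 adjusted over 4 control ratios). Orbital captures 3 (12.9) and 4 (8.64) had the highest ratios. The beta actin controls did not show that order, with a 3′ to 5′ ratio of 7.87 to 9.16 in the orbital captures, against 7.69 to 10.7 in the global captures, and a 3′ to middle ratio of 5.65 to 7.65 in the orbital captures, against 6.37 to 8.26 in the global captures. The Gapdh 3′ to middle ratio was 5.34 to 7.09 in the orbital captures, against 5.11 to 5.71 in the global captures.

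Tmod4 and Tpm2 were lower in the orbital layer, as was 1 of the 5 tested probe sets of Tpm1, and 0 members were higher in limma at the adjusted threshold. At an unadjusted p under 0.05 in limma, 5 member probe sets were lower and 1 (of Tpm3) was higher. The share of all tested probe sets at that unadjusted threshold was not counted, so these counts cannot be called unusual. The shares given next are at the adjusted threshold. Of the 15 tested member probe sets, 3 fell and 12 did not pass, while 3.5% of all tested probe sets were lower in the orbital layer and 3.91% were higher, 7.41% in all. Counted once per gene by its brightest tested probe set, 2 of 6 genes fell and 0 rose, where 3.59% of all genes were lower and 4.09% higher. The layers did not overlap for 4 of the 15 tested member probe sets, all lower in the orbital layer, where 6.75% of all tested probe sets were lower and 7.31% higher without overlap. The median log2 difference was -0.34 over the 15 member probe sets and 0.02 over all tested probe sets. Member probe sets of 1 gene share their transcripts and are not independent of each other. In these tissue samples, fewer fibres of a type and less transcript per fibre cannot be told apart.

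**Figure D1:**
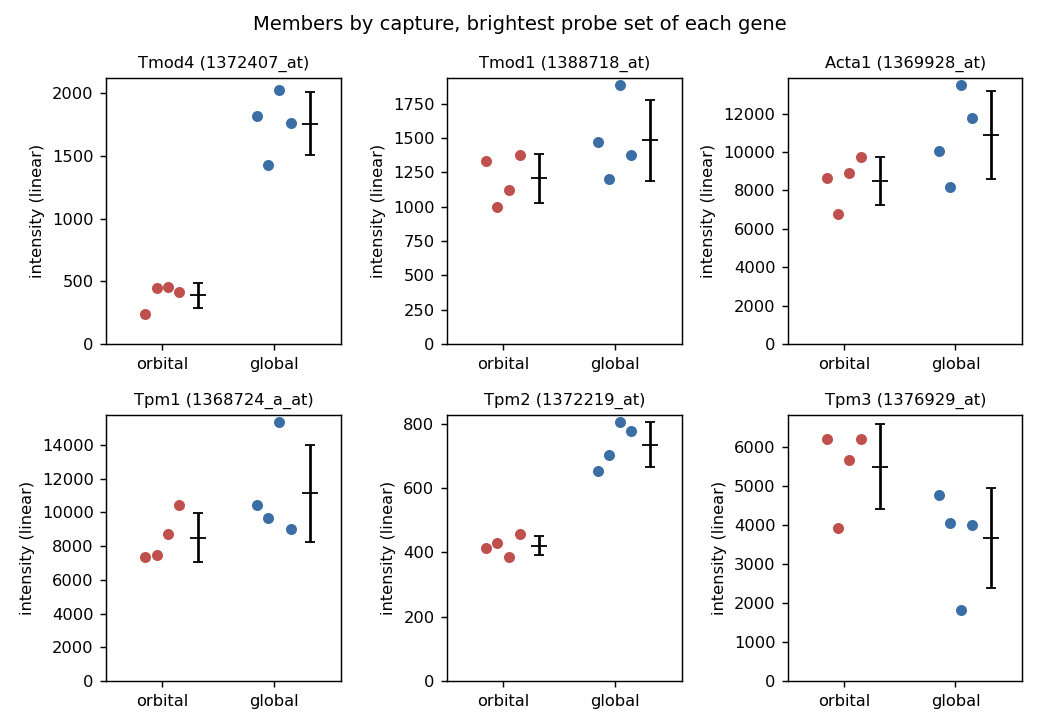
Intensity (linear scale, from 0) of each member gene's brightest probe set in the 4 orbital (red, left) and 4 global (blue, right) captures, 1 point per capture, with the mean and SD beside each group. Tmod4 and Tpm2 are lower in every orbital than in every global capture, while the layers overlap for Tmod1, Acta1, Tpm1 and Tpm3.

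The promoters of the 3 genes with a probe set that fell, and that of Acta1, whose layers overlapped, are shown as the 250 bases before the RefSeq start site on build GRCr8. Capitals mark matches to the CArG box, the element bound by serum response factor, and to the E-box CANNTG, the element bound by myogenic factors such as MyoD. Both patterns read the same on both strands, and no match overlapped another.
Tmod4 promoter, chr2:185384469-185384718, plus strand: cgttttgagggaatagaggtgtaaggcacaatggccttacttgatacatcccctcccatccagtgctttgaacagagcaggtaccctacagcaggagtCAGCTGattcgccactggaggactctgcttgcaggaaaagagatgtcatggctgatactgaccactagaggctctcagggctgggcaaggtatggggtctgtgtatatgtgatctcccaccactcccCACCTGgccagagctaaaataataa
Tpm2 promoter, chr5:62575727-62575976, minus strand: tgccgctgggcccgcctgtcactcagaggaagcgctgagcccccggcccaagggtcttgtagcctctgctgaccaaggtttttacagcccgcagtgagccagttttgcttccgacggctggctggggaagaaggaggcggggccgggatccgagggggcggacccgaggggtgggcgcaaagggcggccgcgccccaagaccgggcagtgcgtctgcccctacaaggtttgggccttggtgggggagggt
Tpm1 promoter, chr8:76543416-76543665, minus strand: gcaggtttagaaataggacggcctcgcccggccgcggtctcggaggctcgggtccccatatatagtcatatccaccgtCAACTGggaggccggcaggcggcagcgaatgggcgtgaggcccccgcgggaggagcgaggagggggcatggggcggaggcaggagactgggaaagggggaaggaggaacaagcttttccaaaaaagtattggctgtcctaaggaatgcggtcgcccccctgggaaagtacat
Acta1 promoter, chr19:68784195-68784444, minus strand: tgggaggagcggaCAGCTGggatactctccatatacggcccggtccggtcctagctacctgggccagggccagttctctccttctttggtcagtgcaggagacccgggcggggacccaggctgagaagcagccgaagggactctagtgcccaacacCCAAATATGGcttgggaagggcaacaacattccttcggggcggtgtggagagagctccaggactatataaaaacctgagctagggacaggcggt
The Tmod4 window held E-boxes that begin 152 and 25 bases before the start site. Acta1 held a CArG box 94 bases before its start site and an E-box at 237, and Tpm1 an E-box at 172. Neither pattern is in the letters of the Tpm2 window. Of 33469 RefSeq windows of this length, 1.5% held a CArG box and 65.5% an E-box, so an E-box match is common. RefSeq gave 9 windows for the 7 member symbols. The other windows without a CArG box were those of Actc1, Tmod1 and the 3 starts of Tpm3, and a match in these letters does not show binding.

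Tmod4, a pointed-end cap of skeletal muscle, had the largest difference of the tested member probe sets. Its intensity was 240.5, 449, 456 and 413 in orbital captures 1 to 4, against 1813, 1427, 2026.5 and 1760.3 in global captures 1 to 4. Every orbital capture lay below every global capture, and orbital capture 1 was the lowest of all. Tmod4 averaged 389.7 ± 101 in the orbital layer, against 1757 ± 248 in the global layer (SD, n = 4 each), a log2 difference of -2.20 ± 0.19 (SE, adjusted p = 3.31e-05), or 4.61-fold lower. It passed under all 22 alternatives, with a difference between -2.30 and -1.99. Only 1 probe set stands for the gene.

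Tmod1 did not pass at either of its probe sets. The brighter one (1388718_at) had 1333, 996, 1124 and 1377 in the orbital captures, against 1468, 1201, 1889 and 1375 in the global captures. The layers overlapped, and the difference was -0.29 ± 0.16 (adjusted p = 0.317). The other (1387370_at) had 193, 165, 154 and 189 in the orbital captures, against 184.5, 209.8, 163 and 126 in the global captures, with a difference of 0.06 ± 0.17 (adjusted p = 0.887).

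The cap genes were set against each other by the log2 ratio of their probe sets within each array, which does not depend on how an array was scaled. The ratio of Tmod1 over Tmod4 was 2.47, 1.15, 1.30 and 1.73 in the orbital captures, against -0.30, -0.25, -0.10 and -0.36 in the global captures. It was higher in every orbital capture, and most so in capture 1. Since 2 probe sets need not respond alike to their transcripts, the ratio has a meaning only between layers. The ratio was 1.91 higher in the orbital layer (exact permutation test over 70 splits, two-sided, p = 0.0286, the smallest this design can give). Adjusted over the 13 ratios tested among the members, p was 0.0929, and 0 of 13 ratios passed after adjustment, while 4 had an unadjusted p of 0.0286. With 13 ratios, 4 at the smallest p cannot pass this adjustment.

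Acta1, the actin of adult skeletal muscle, did not pass. It had 8628, 6756, 8924 and 9720.4 in the orbital captures, against 10053, 8204, 13495 and 11793 in the global captures. The layers overlapped through global capture 2, the lowest of its layer. Acta1 averaged 8507 ± 1255 in the orbital layer, against 10886.5 ± 2274 in the global layer (SD, n = 4 each), a difference of -0.34 ± 0.18 (adjusted p = 0.288), and it was between -0.47 and -0.23 over the alternatives. The probe set was among the bright ones of the array, at 51.2% to 65.0% of the highest value in the orbital and 67.0% to 73.6% in the global captures, and whether its signal was near saturation was not tested. Actin genes are closely similar in sequence, so signal from other actins at this probe set was not told apart.

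Actc1 itself could not be compared. The 3 probe sets annotated to both Acta2, the actin of vascular smooth muscle, and Actc1 differed by 0.26, 0.14 and 0.17 without passing (adjusted p = 0.554, 0.878 and 0.796). The brightest of them (1370856_at) had 3025, 2468, 2169 and 4402 in the orbital captures, against 2764, 2634.5, 1680.1 and 2857 in the global captures. The layers overlapped, with the lowest values in orbital capture 3 and global capture 3. The probe set annotated to Acta2 alone was far dimmer, at a mean of 67.5 in the orbital layer, against 69.6 in the global layer. It differed by -0.05 (adjusted p = 0.928).

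The 5 tested probe sets of Tpm1, alpha tropomyosin, were all below 0 but differed in size, and 1 passed. The brightest (1368724_a_at) had 7327, 7465, 8749 and 10450.1 in the orbital captures, against 10467, 9693, 15361 and 9001 in the global captures. The layers overlapped, with orbital capture 4 above global captures 2 and 4, and the difference was -0.37 ± 0.19 (adjusted p = 0.272). It was -0.21 without global capture 3, and it passed in 1 of 22 alternatives, with title prefix and capture number as a block (-0.54, adjusted p = 0.0427). The probe set 1370288_a_at had 414, 337, 279.8 and 511 in the orbital captures, against 974, 664, 1148 and 873.5 in the global captures. Here every orbital capture lay below every global capture, and the probe set fell by 1.25 ± 0.20 on the log2 scale (adjusted p = 0.00194), or 2.39-fold.

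Of the other probe sets of Tpm1, 1370287_a_at had 74.5, 83.5, 131 and 123 in the orbital captures, against 157, 143, 205 and 148 in the global captures. Its layers did not overlap either, but the difference of -0.68 ± 0.21 did not pass (adjusted p = 0.0629). It passed under 5 of 22 alternatives. The probe set 1371241_x_at, a type whose probes may also match other genes, averaged 5952 ± 1379 in the orbital layer, against 8571 ± 1942 in the global layer (SD, n = 4 each) and differed by -0.53 ± 0.19 (adjusted p = 0.120, passing under 4 of 22 alternatives). The dim 1371240_at had 91.8, 84.3, 16.2 and 136 in the orbital captures, against 94.3, 93.9, 298 and 132 in the global captures, a difference of -1.07 ± 0.54 (adjusted p = 0.279). It was -0.42 without orbital capture 3 and -0.69 without global capture 3. The last probe set, 1370513_at, was 1.2 to 2.5 in the orbital captures, against 1.5 to 11.8 in the global captures, and was not tested.

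Within the arrays, the log2 ratio of 1370288_a_at over 1368724_a_at was -4.14, -4.47, -4.96 and -4.35 in the orbital captures, against -3.42, -3.87, -3.74 and -3.36 in the global captures. It was lower in every orbital capture, by 0.88 (exact permutation p = 0.0286; 0.0929 adjusted over 13 ratios). The Tpm1 gene gives several products by alternative splicing, and the annotation used here does not say which of them each probe set reads. The other 3 Tpm1 ratios overlapped between layers, with differences of -0.31, -0.69 and -0.16 (adjusted p 0.212 to 0.543, exact permutation tests).

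**Figure D2:**
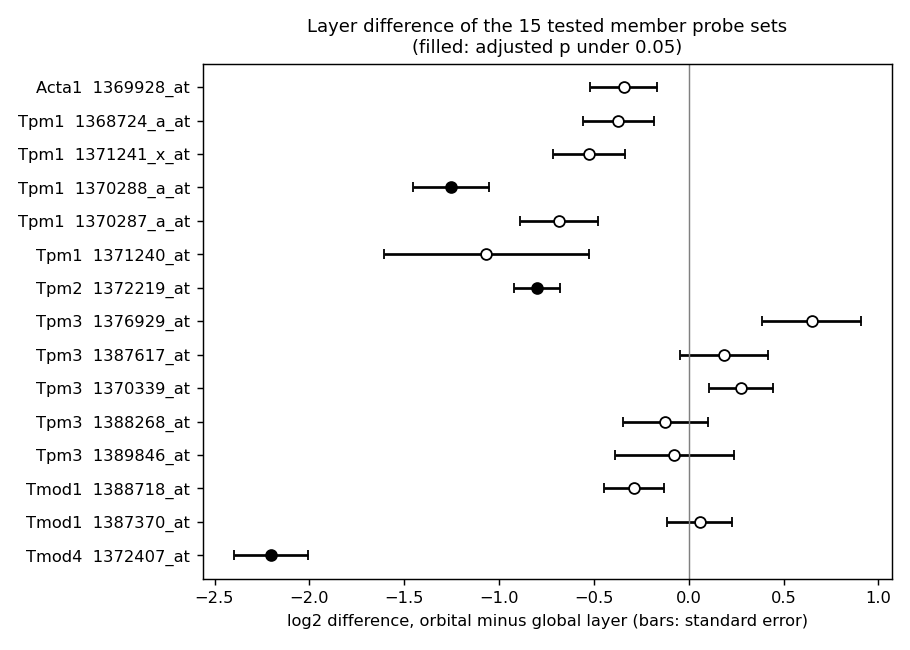
Log2 difference, orbital minus global (x axis), with the standard error, for the 15 tested member probe sets (rows), filled where the adjusted p was under 0.05. The 3 filled points are Tmod4 (-2.20), Tpm1 1370288_a_at (-1.25) and Tpm2 (-0.80), and the 4 points above 0 are 3 of Tpm3 and 1 of Tmod1.

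Tpm2, beta tropomyosin, was lower in the orbital layer. It had 412, 430.3, 384 and 457 in the orbital captures, against 652, 702, 806 and 777 in the global captures. The layers did not overlap, and the spread within each was small. Tpm2 averaged 421 ± 30.8 in the orbital layer, against 734 ± 69.8 in the global layer (SD, n = 4 each), a log2 difference of -0.80 ± 0.12 (adjusted p = 0.00139), or 1.74-fold lower. The difference was between -0.92 and -0.68 over the alternatives, and like that of 1370288_a_at it did not pass in the 4 captures with the title prefix R2 alone (titles begin with R2 or R3, which the labels do not explain; 2 captures per layer, adjusted p = 0.119 for Tpm2 and 0.0747 for 1370288_a_at).

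Tpm3, the tropomyosin of slow fibres, did not pass at any of its 5 tested probe sets. The brightest (1376929_at) had 6214, 3918, 5675 and 6208 in the orbital captures, against 4783, 4070, 1829.7 and 4000 in the global captures. Global capture 3 was the lowest of all, and orbital capture 2 lay within the range of the global captures. The difference was 0.65 ± 0.26 (adjusted p = 0.169), and it was 0.34 without global capture 3. In global capture 3 the summed intensity of 9 markers of slow fibres was 20967.5, against 32984 to 36084.5 in the other 3 global captures, and the part of slow fibres in the Tpm3 value was not tested.

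The other 4 tested probe sets of Tpm3 went both ways by small amounts. The differences were 0.18 for 1387617_at, 0.28 for 1370339_at, -0.12 for 1388268_at and -0.08 for 1389846_at (adjusted p 0.382 to 0.918). The remaining 6 were under the filter. Of these, 1370450_at had 75.8, 51.7, 36.2 and 49.1 in the orbital captures, against 11.8, 10.2, 22 and 14.6 in the global captures, without overlap. In a fit of all 15866 probe sets with no filter it was higher in the orbital layer by 1.80 ± 0.38 (adjusted p = 0.0196), where 1.92% of probe sets were higher. This signal is dim, the table has no detection calls, and a probe set of low mean is only seen there because 1 layer is higher, so the value is a description. The other 5 were at 0.9 to 60.4 in the orbital captures, against 0.5 to 50.2 in the global captures, with overlapping layers.

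The tropomyosins were also compared within arrays. The log2 ratio of Tpm1 over Tpm3 was 0.24, 0.93, 0.62 and 0.75 in the orbital captures, against 1.13, 1.25, 3.07 and 1.17 in the global captures. That of Tpm2 over Tpm3 was -3.91, -3.18, -3.88 and -3.76 in the orbital captures, against -2.87, -2.53, -1.18 and -2.36 in the global captures. Each ratio was lower in every orbital capture, and each stood highest in global capture 3. The differences were -1.02 and -1.45 (exact permutation p = 0.0286 each; 0.0929 each adjusted over 13 ratios). Without global capture 3 the Tpm1 over Tpm3 difference was -0.55. Tpm1 over Tpm2 overlapped between the layers and was 0.43 higher in the orbital layer (exact permutation p = 0.0857; 0.186 adjusted). The tropomyosin genes are similar in sequence, so signal shared between them leaves their separate levels uncertain.

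**Figure D3:**
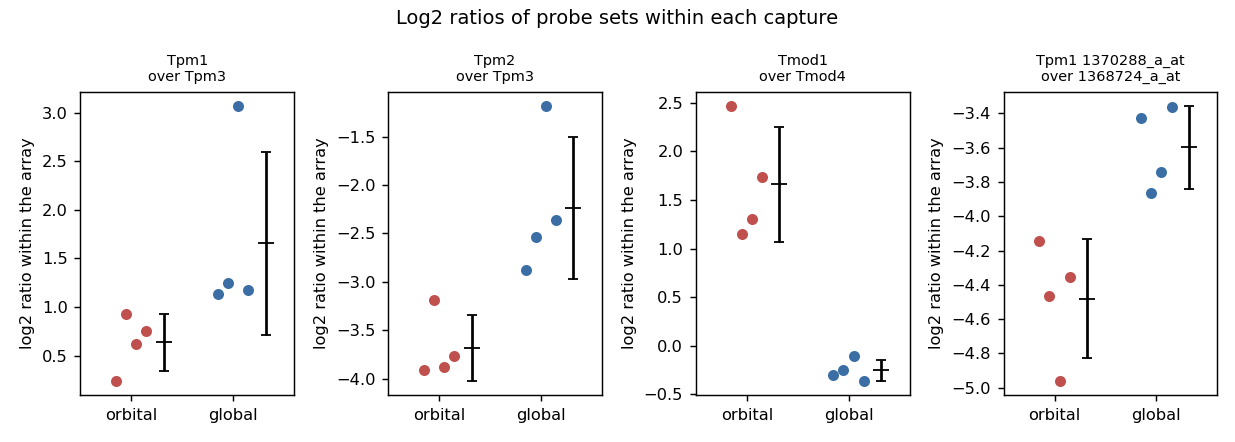
Log2 ratio of 2 probe sets within each array (y axis) for the 4 orbital (red, left) and 4 global (blue, right) captures, with mean and SD beside each group, for the 4 ratios whose layers do not overlap. Tmod1 over Tmod4 is higher in the orbital captures and the other ratios are lower there, with global capture 3 apart from the other global captures for Tpm1 over Tpm3.

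For each member, the genes most like it were those with the smallest SD of the log2 ratio to it over the 8 captures, so that a small SD means a nearly constant ratio. Tmod4 was most like Gpd1, the cytosolic glycerol-3-phosphate dehydrogenase (SD 0.228), and Cacng1, the gamma subunit of the calcium channel of muscle (SD 0.265), where the median over all compared probe sets was 1.26. Those genes had log2 differences of -2.22 and -1.83. Acta1 was most like Tnnt3, the fast skeletal troponin T (SD 0.0868, median 0.427), and Bccip. Tpm1 was most like Lrch3 and Neb, the giant ruler protein nebulin (SD 0.116 and 0.118, median 0.449). Tpm2 was most like Dis3l and Eif4e (SD 0.102 and 0.143), Tmod1 like Acsl6 and Vdac3 (SD 0.0879 and 0.0961) and Tpm3 like Zfp512 and Pola2 (SD 0.213 and 0.228). The SD spans both layers, so a gene near a member has a similar layer difference by the way it was picked. For Tmod4 its own large layer difference also raises the median SD. A smallest SD is picked from a large number of probe sets, so closeness in 8 captures is a description.

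Other genes that bind, cap, fold or control actin moved in few places. Over 6 lists with 58 tested genes, 5 fell and 0 rose, which is 8.62% of them, near the 7.68% of all genes that passed in either direction. By direction, 3.59% of all genes were lower and 4.09% higher. The lists' median difference was 0.03. Of 10 genes of the barbed end and Z-disc anchoring, 4 fell and 6 did not pass (median 0.12). Actn3, the fast-fibre alpha-actinin, had 519, 758, 3639 and 538 in the orbital captures, against 11929, 9082.5, 17175 and 13544.5 in the global captures, a difference of -3.75 ± 0.48 (adjusted p = 0.000425). The orbital captures lay far below the global ones, and orbital capture 3 was the highest of them. Capza2, a subunit of the capping protein, averaged 319 ± 24.4 in the orbital layer, against 528 ± 63.9 in the global layer (-0.72, adjusted p = 0.00357). Its call was lost under 2 of 22 alternatives, each title prefix alone. The partner subunits Capza1 and Capzb differed by 0.13 and 0.19 without passing. Actn1, the non-muscle alpha-actinin, and Synpo2, a Z-disc binding protein, fell by 0.75 each on the log2 scale (adjusted p = 0.0219 and 0.0215). Both calls depended on single captures. Actn1 did not pass when orbital capture 1, orbital capture 4 or global capture 2 was dropped (lowest adjusted p 0.0553), nor did Synpo2 when global capture 1, 3 or 4 was (lowest adjusted p 0.0517). A second probe set of Cap2, a cyclase-associated protein that binds actin, rose by 0.72 (adjusted p = 0.0367), a call that was lost under 11 of 21 alternatives, among them the removal of orbital capture 1, 3 or 4 or of global capture 1, 2 or 4. Its brightest probe set did not pass.

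At the pointed end and along the filament, 0 of 5 tested genes passed at the adjusted threshold in limma, and 3 had an unadjusted p under 0.05 (1 lower and 2 higher). The unadjusted counts in this paragraph have no share over all genes beside them. Neb differed by -0.45 (adjusted p = 0.109), Lmod3, the leiomodin of skeletal muscle, by -0.29 (0.278), Tmod3, the widespread tropomodulin, by 0.40 (0.226) and Nrap, an actin-binding protein of forming myofibrils, by 0.47 (0.0997). Of 16 genes of actin turnover 0 passed in limma by their brightest probe set, with 2 lower and 2 higher at an unadjusted p under 0.05. Cfl2, the muscle cofilin that severs filaments, differed by -0.35 (adjusted p = 0.0911) there and fell by 0.66 on the log2 scale at its second probe set (adjusted p = 0.0253), a call lost under 8 of 22 alternatives, among them the removal of orbital capture 2 or 3 or of global capture 1 or 3. Of 14 genes of actin folding 1 fell, Pfdn2, a prefoldin subunit (-0.57, adjusted p = 0.04999), a call that was lost under 13 of 22 alternatives and not shared by its second probe set (0.22). Of 3 other actins and tropomyosins and of 10 genes of the serum response factor and Mef2 group, 0 passed in limma, with 0 and 1 at an unadjusted p under 0.05. Srf differed by 0.09 and Mef2c by 0.04.

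The troponins, which sit on tropomyosin, included 1 gene that rose and 1 that fell among 7 tested. Tnnt2, the cardiac troponin T, rose (adjusted p = 0.000403), with 896, 650.3, 598 and 989.9 in the orbital captures, against 1.4, 69.6, 5 and 23.5 in the global captures. Of the global values 3 of 4 lie below the filter's intensity of 39.4, so the size of the difference is uncertain: it was 5.93 with a pseudocount of 1, 4.55 with 16 and 3.29 with 64. Tnni1, the slow troponin I, fell by 1.62 on the log2 scale (adjusted p = 0.00245). The fast skeletal Tnnt3, Tnni2 and Tnnc2 differed by -0.43, -0.55 and -0.13 without passing.

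**Figure D4:**
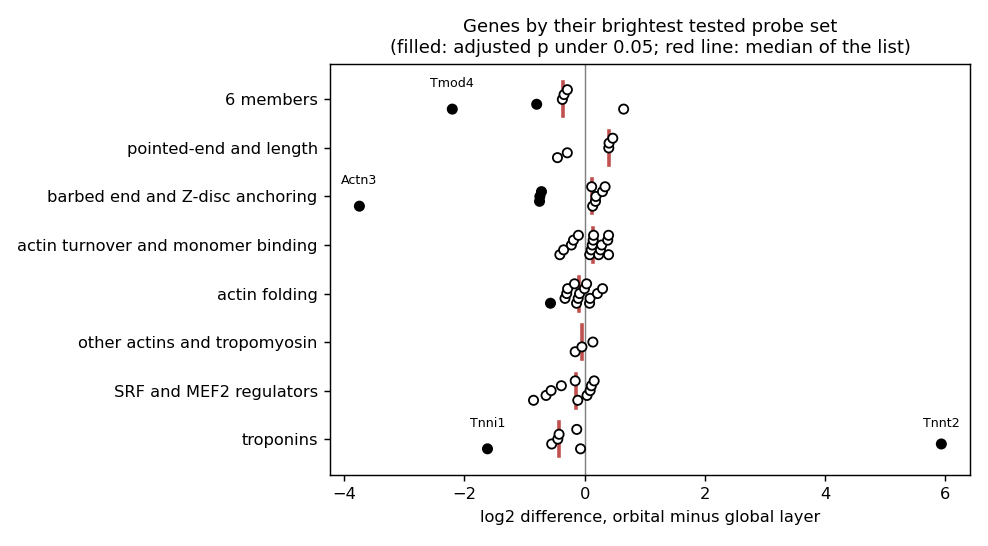
Log2 difference, orbital minus global (x axis), of each gene by its brightest tested probe set, for the 6 members and 7 lists of actin filament genes (rows), filled where the adjusted p was under 0.05, with the list's median as a red line. The barbed end list holds 4 of the filled points and the members 2, and the medians lie between -0.43 for the troponins and 0.40 for the pointed-end list.

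Markers of fibre types also differed between the layers. Summed levels below are over all genes of a list on the array, each by its brightest probe set. Of 11 tested fast fibre genes 6 fell (Actn3, Mybpc2, Pvalb, Myoz1, Casq1 and Atp2a1) and 0 rose, with the call of Atp2a1 lost under 10 of 22 alternatives and that of Casq1 under 2, and the summed intensity was 38014 to 54786 in the orbital captures, against 64203 to 106342 in the global captures. Of 9 slow fibre genes 4 fell (Myl3, Myh7, Tnni1 and Myl2) and 2 rose (Atp2a2 and Casq2), with a summed intensity of 20377 to 27299 in the orbital captures, against 20967.5 to 36084.5 in the global captures. Smooth muscle, which also uses Tpm1 and Tpm2, is a part of vessel walls. Of its 7 tested markers 1 fell and 0 rose, and the list summed to 1214 to 1469 in the orbital captures, against 1534 to 1775 in the global captures. The gene that fell was Myh11, smooth muscle myosin (-1.39, adjusted p = 0.00267), while Actg2 and Cnn1 were under the filter. Its call was lost under 2 of 22 alternatives, each title prefix alone. Myh11 averaged 168 in the orbital layer, against 424 in the global layer. The list's sum averaged 1374 in the orbital layer, against 1640 in the global layer, and the largest fall in it was that of Myh11. The other markers went both ways. Tagln averaged 42.6 in the orbital layer, against 70.65 in the global layer, Smtn 95.1 against 122.8, and Mylk 218 against 232. Acta2 averaged 67.5 against 69.6, Cald1 647.7 against 571.1, and Lmod1 87.35 against 67.1. Under the filter, Actg2 averaged 27.2 against 41.6 and Cnn1 20.15 against 40.25. The part of fibre types and of smooth muscle in the values of Tmod4, Tpm1 and Tpm2 was not tested. Among the tested markers of other cells, 2 of 10 fibroblast genes (Fbln1 and Fbln2), 1 of 8 endothelial genes (Eng) and 2 of 7 Schwann cell and nerve genes (Nefm and Cnp) rose and 0 fell. Most of these calls were not stable: that of Fbln1 was lost under 13 of 22 alternatives, of Nefm under 11 of 22, of Fbln2 under 10 of 22, of Eng under 6 of 21 and of Cnp under 3 of 22. Fibroblast genes summed to 5823 to 8727 in the orbital captures, against 4373 to 8040 in the global captures. Endothelial genes summed to 1228.5 to 1815 in the orbital captures, against 1219 to 1490 in the global captures, and nerve genes to 2909 to 5629 in the orbital captures, against 1558 to 5041 in the global captures. These sums overlapped between the layers, and their part in the members' values was not tested.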

How the data were processed

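RNA of 8 laser captures, 4 orbital and 4 global, was amplified with a T7-based kit (RiboAmp OA) and hybridised to 1-colour Affymetrix rat RAE230A arrays, per the labels. The authors deposited a series matrix of linear intensity values, 1 for each of the probe sets on every array. How probes were summarised is not given in the sources used here, but the arrays' trimmed means (2% off each end) differed by at most 0.00389%, so the deposited intensity values were taken as already scaled and used unchanged.

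Captures were grouped by the source in the labels and numbered in accession order. The 57 control probe sets among 15923 were removed. Of the remaining 15866, 9520 passed the filter on low values, and log2(intensity + 1) was modelled on layer alone with lmFit and trended eBayes (limma 3.58.1 in R 4.3.3). Genes were named from the platform annotation, which can be old, and gene IDs of all members had the same symbol in a current RefSeq table. Per-array log2 ratios were compared by exact permutation tests (scipy 1.17.1). The planned ratio of Actc1 over Acta1 could not be made. The members and 14 gene lists were chosen with earlier results of these data known. Named were all members, the list genes that passed and a few others, and the 2 genes nearest to each member. Promoter sequences are from RefSeq (GRCr8).

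Alternatives were other normalizations, pseudocounts of 16 and 64, other filters, eBayes without trend or robust, the title prefix (with or without capture number) as a block, orbital captures 3 and 4 averaged because of their near-identical titles, each prefix alone, and each capture left out. On simulated data for 4 against 4 captures, 80% of probe sets changed by a log2 difference of 1 and 97% of those changed by 2 were recovered among 9520, with 9 false calls. The simulated captures were independent of each other, with 200 changed probe sets. Captures that share an animal, or 1 capture run on 2 arrays, were therefore not covered.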

Additional observations from a re-analysis of the deposited data

Results flagged for a closer look

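In 2 of 56 groups of 4 captures 1 capture stood apart by Dixon's test at the 95% level, where chance flags about 1 group in 20. The log2 ratio of Tpm1 over Tpm3 was 3.07 in global capture 3, against 1.13 to 1.25 in the other 3 global captures. The log2 ratio of Tpm1 1371240_at over 1368724_a_at was -8.99 in orbital capture 3, against -6.45 to -6.25 in the other orbital captures. The Tpm3 probe set 1370450_at, which was under the filter and in no test of the main comparison, averaged 53.2 in the orbital captures, against a range of 10.2 to 22 in the global captures.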

How the results depend on the processing

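The 3 calls of the members were lower in the orbital layer under all 22 alternatives. Tmod4 passed under each of them, and Tpm2 and Tpm1 1370288_a_at under each but the captures with prefix R2 alone, where 1 member probe set was called lower. With the title prefix as a replicate block 5 were called lower, and with prefix and capture number as a replicate block 6, and the added calls were all of Tpm1. Leaving out 1 capture at a time gave 3 to 4 calls lower and 0 higher. With no filter 1 member probe set was called higher, Tpm3 1370450_at. Directions that reversed were of probe sets that never passed. Tpm3 1389846_at was 0.21 with the prefix and capture number block, 0.024 with orbital captures 3 and 4 averaged, 0.32 with prefix R2 alone, and -0.22 to 0.20 when 1 capture was left out. Tmod1 1387370_at was -0.056 with that block, -0.14 with prefix R2 alone and -0.080 to 0.16 when 1 capture was left out. Tpm3 1387617_at was -0.035 with prefix R3 alone and Tpm3 1388268_at 0.038 with prefix R2 alone. The ratio of Tpm3 1387617_at over 1376929_at was -0.72 to 0.0074 when 1 capture was left out. The cause was not tested. Captures sharing prefix and number deviated together weakly from their layer means (r of 0.035 to 0.11 across probe sets in 4 pairs). In 8 pairs of different prefix r was -0.13 to 0.045, mostly lower. Deviations from a layer mean sum to 0 over that layer, so higher r in some pairs brings lower r in others. Orbital captures 3 and 4 are both paired with global capture 3 among the pairs sharing prefix and number. The labels do not explain the title prefix and capture numbers, so captures were not taken as pairs in the main fit. The 4 ratios between genes did not pass under any of 14 alternatives, among them splits within the title prefix (replicate block), with the lowest adjusted p at 0.0619. Splits within the prefix cannot give a p below 0.0556, so no ratio could pass there. Tmod1 over Tmod4, whose layers did not overlap, takes the smallest p that a setting can give. Its adjusted p was still 0.149 to 0.186 when 1 capture was left out. Fewer captures leave fewer splits, so no ratio could pass there either, nor with orbital captures 3 and 4 averaged. Failing to pass under these settings was set by the design and says nothing about the ratios. The ratios kept their direction under the 14 alternatives, at 1.65 to 2.09 for Tmod1 over Tmod4. Over all probe sets, the calls lower in the orbital layer numbered 333, against 61 with prefix R2 alone, 90 with prefix R3 alone and 217 without global capture 3. The calls higher numbered 372, against 45 and 80 with those prefixes and 241 to 246 without orbital capture 1 or 3 or global capture 3. Only 4 arrays per layer and the dim signal of 7 probe sets under the filter limit the precision.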
